A study of Mus musculus with 30 samples.

Results

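The genes of cartilage maturation followed here numbered 5. They were measured in cultures of mouse limb mesenchyme and comprised Indian hedgehog (Ihh), the receptor Pth1r, the transcription factors Runx1 and Runx3, and the enzyme gene Alpl. The members were the probe sets that the array annotation pairs with these 5 symbols, and each gene was read from its brightest probe set. The array carried 11 probe sets for the 5 genes, and 10 of them passed the filter on dim signals. All 5 genes entered the tests, which covered 15136 genes.

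Cartilage cells that mature towards hypertrophy first pass through a prehypertrophic stage in which they make Ihh, a secreted signal that acts on neighbouring cells through the receptor Ptch1 and the Gli factors. In the growth plate, Ihh also keeps up the production of the peptide PTHrP, whose receptor Pth1r holds cartilage cells back from hypertrophy. Runx factors bind one core DNA motif together with the partner protein Cbfb: Runx1 is known in early mesenchymal condensations, and Runx3 acts with Runx2 in the later maturation of cartilage cells. Alpl encodes tissue-nonspecific alkaline phosphatase, which removes phosphate from pyrophosphate and so permits mineral to form.

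The cultures came from limb buds of CD-1 mouse embryos at E10.5, a day at which the limb is still mostly undifferentiated mesenchyme. The study compared 3 populations: an early one from the distal hindlimb, an intermediate one from the distal forelimb, and a late one from the proximal forelimb. Cells of each population were plated at high density, and total RNA was taken at day 1 and day 2 from cultures given 20 ng/ml BMP4, a growth factor that drives cartilage formation, from time 0, at day 1 and day 2 from cultures without it, and at day 0 from cultures without it. This gave 15 groups of 2 arrays, which the labels call biological replicates. All groups share the strain and the embryonic age, cultures were made from many pooled embryos, and every group is a primary culture of mixed limb bud cells and not of purified cartilage cells. The labels' growth protocol also speaks of limb cultures of an older embryonic age, but no array carries that label.

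Levels are given throughout as log2(signal + 16), where the signal is the deposited array intensity, so a level of 4 stands for a signal of 0. Differences are on the same scale, on which changes of dim probe sets are understated. The array median signal lay between 33.9 and 46.4, and the replicates of a group correlated at 0.970 to 0.984 over the 15136 genes tested. With 2 arrays a group, a p-value rests on the spread between replicate arrays, estimated over all 15 groups and moderated over genes. It measures the spread between such arrays only. At day 0, 3 arrays went against their labels by genes of limb identity. In the early population, the hindlimb factor Pitx1 stood at 9.74 in replicate 1 and 5.90 in replicate 2, and the forelimb factor Tbx5 at 4.47 and 8.50. In the intermediate population, Pitx1 stood at 6.15 in replicate 1 and 9.43 in replicate 2, and Tbx5 at 8.47 and 4.68. In the late population, the proximal factor Meis2 stood at 9.60 in replicate 1 and 7.53 in replicate 2, a value within the range of the distal forelimb arrays. Replicate 2 of each population at day 0 is therefore called doubted here, and many results that use day 0 are also given without these 3 arrays. Where no such value is given, the result includes the doubted arrays and was not shown to hold without them.

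Short stretches of promoter sequence are shown for Runx1, Runx3 and Ihh, because Runx proteins bind the letters TGTGGT, read as ACCACA on the other strand, and a Runx1 and a Runx3 promoter carry the same tandem of AACCACA. RefSeq promoters of the mouse assembly GRCm38.p6, from 250 bases before to 50 bases after each start, were found for all 5 genes: 1 for Ihh, 3 for Pth1r and 2 each for Runx1, Runx3 and Alpl. One start of Runx1 and one of Runx3 hold the same run of 18 bases, with AACCACA present at 2 places, written here in capitals. Each is shown 5′ to 3′ on the strand of its gene, inside a window of 30 bases.
Runx1 (chr16:92826027-92826056, minus strand, run at base 27 to base 44 after the start): ctcataaacAACCACAgAACCACAagttgg
Runx3 (chr4:135120501-135120530, plus strand, run at -136 to -119 from the start): tggtccctcAACCACAgAACCACAaggcca
Of 32851 promoters searched on both strands, 4 hold this run: those of Runx1, Runx3 and Runx2, and 1 of a gene on the opposite strand that overlaps the Runx3 window. AACCACA at 2 or more places occurs in 0.204% of all promoters and at any place in 5.269%, and TGTGGT, whose reverse complement overlaps it, in 16.761%. The Ihh promoter does not hold the tandem and has 1 copy of TGCGGT at -45, a variant of the Runx letters found in 6.453% of all promoters and in 1 of the 10 promoters of the 5 genes. Its 250 bases before the start have a GC content of 72.0%, with TGCGGT in capitals.
Ihh (chr1:74951673-74951922, minus strand): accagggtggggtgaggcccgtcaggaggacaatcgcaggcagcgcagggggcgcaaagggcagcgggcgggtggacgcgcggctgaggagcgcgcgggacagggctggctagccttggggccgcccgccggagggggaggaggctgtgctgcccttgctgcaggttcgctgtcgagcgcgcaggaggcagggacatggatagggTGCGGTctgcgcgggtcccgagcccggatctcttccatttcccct
The Gli letters GACCACCCA occur in 0.253% of all promoters and in 0 of the 10 promoters of these genes. A match of letters describes the sequence only, and the arrays do not tell which start is used.

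**Figure D1:**
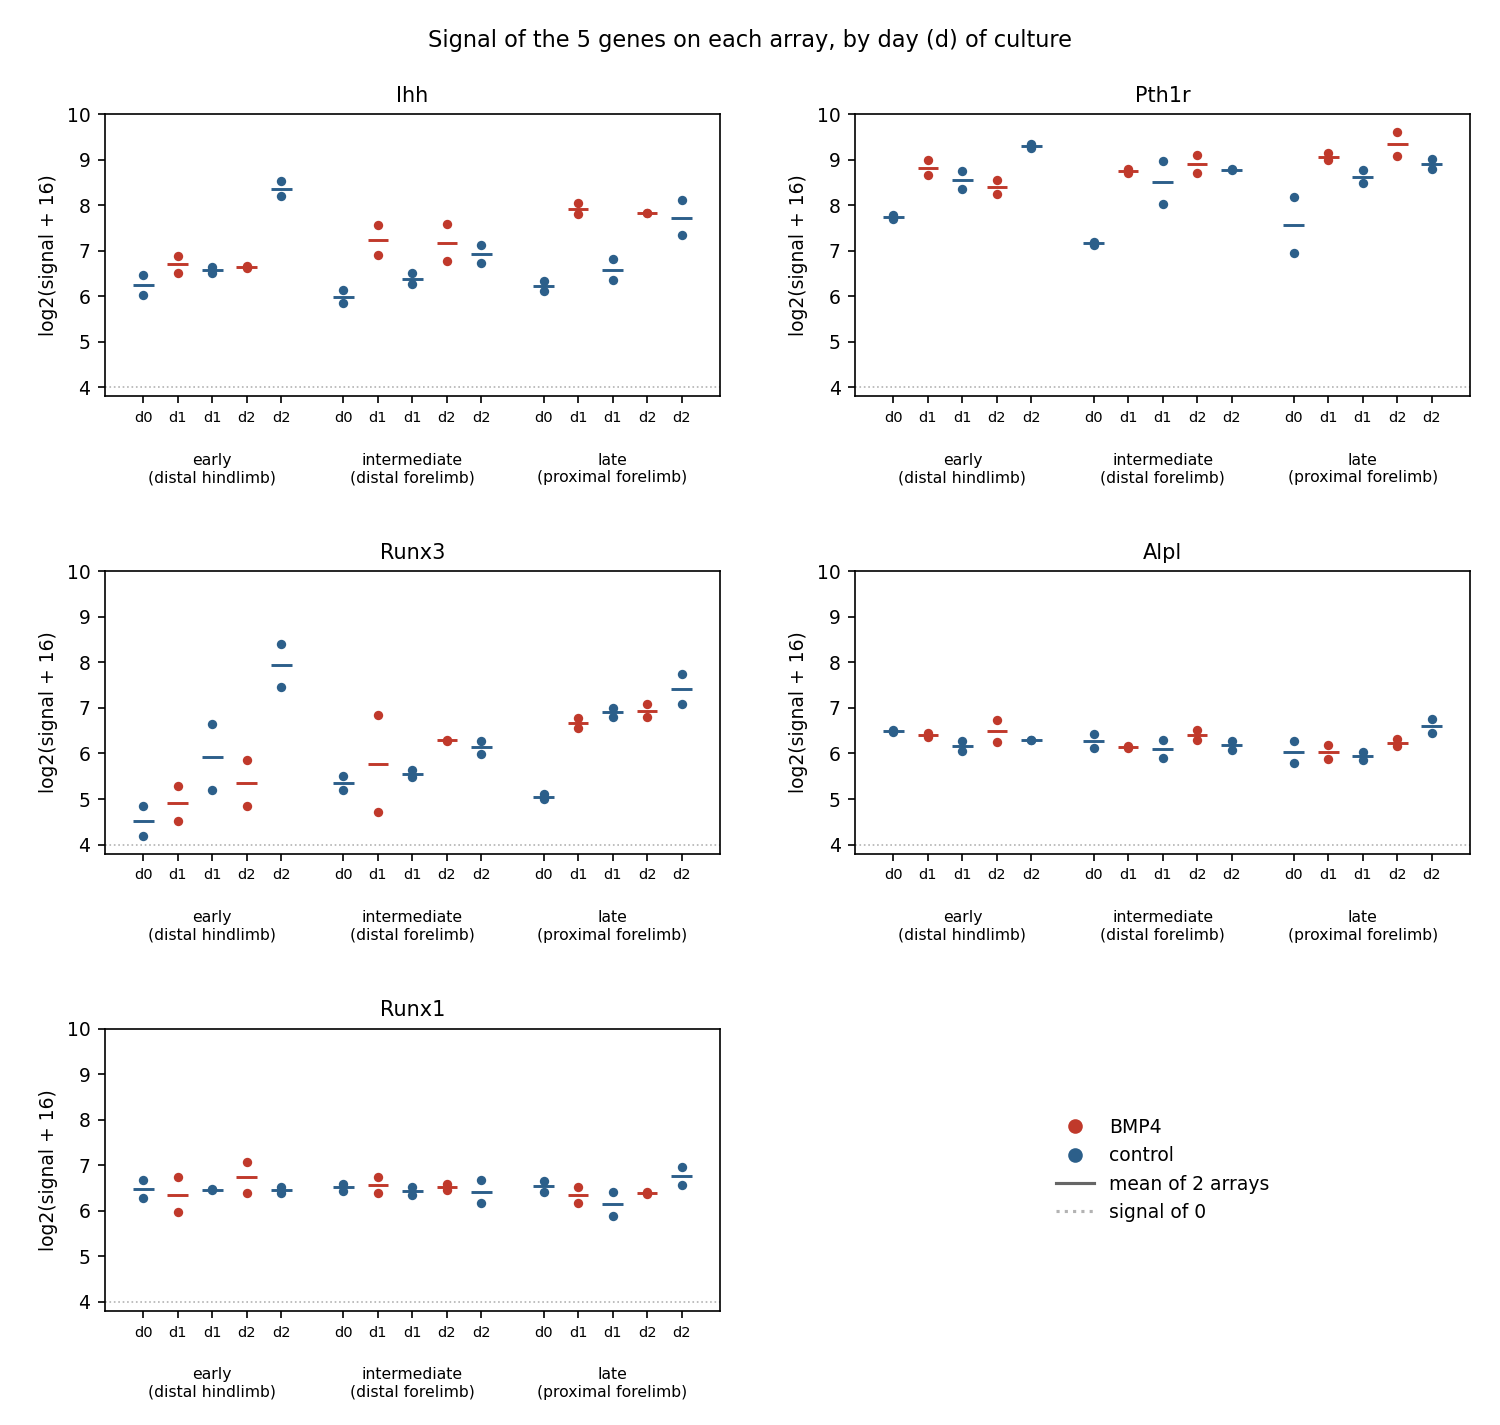
Levels of the 5 genes on each of the 30 arrays, as log2(signal + 16), by population and day. Points are single arrays, red for BMP4 and blue for control medium, bars are means of 2 arrays, and the dotted line at 4 marks a signal of 0. The highest single points of Ihh (8.52) and Runx3 (8.40) are control arrays of the early population at day 2, while Runx1 and Alpl stay within narrow ranges.

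The secreted signal Ihh rose over 2 days of control culture in every population. Its levels in the early population were 6.01 and 6.47 at day 0, 6.51 and 6.64 at day 1, and 8.52 and 8.20 at day 2. Both day 2 arrays stood above all day 0 and day 1 arrays of that population. In the intermediate population the levels were 6.13 and 5.85 at day 0, 6.26 and 6.50 at day 1, and 6.72 and 7.12 at day 2. In the late population they were 6.34 and 6.10 at day 0, 6.36 and 6.81 at day 1, and 7.35 and 8.10 at day 2, again with no overlap between day 2 and the earlier days. Day 2 minus day 0 was 2.12 ± 0.28 in early cultures, a 4.34-fold difference on this scale (SE, n = 2 arrays a group, limma's moderated test, adjusted p = 1.2e-05). It was 0.93 in intermediate cultures (adjusted p = 0.0152) and 1.5 in late cultures (adjusted p = 0.000398), with the same SE. In early and late cultures Ihh kept its call without the doubted arrays, at 2.35 (adjusted p = 0.000153) and 1.38 (adjusted p = 0.0113). In intermediate cultures the difference was then 0.79 and no longer passed (adjusted p = 0.127), and without day 2 control replicate 2 it was 0.73 (adjusted p = 0.138).

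Most of this rise came on the second day in early cultures. Day 2 minus day 1 was 1.79 there, with a 95% interval of 1.20 to 2.37 (adjusted p = 0.00209), and 1.63 without day 2 control replicate 1, when it did not pass (adjusted p = 0.0606). The same step was 1.14 in late cultures (adjusted p = 0.0593) and 0.54 in intermediate cultures (adjusted p = 0.611). The first day brought 0.33, 0.39 and 0.36 in early, intermediate and late cultures, with adjusted p-values of 0.496, 0.373 and 0.42. In bulk cultures, fewer cells of a type that makes a transcript and less of it per cell cannot be told apart.

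Under BMP4, Ihh at day 2 was lower than in control medium in early cultures, and not detectably different in the other populations. Early cultures with BMP4 had levels of 6.62 and 6.67, against 8.52 and 8.20 in control medium. The arrays with BMP4 thus stood where the control arrays had stood at day 1. The difference was -1.72 ± 0.28, 3.28-fold lower on this scale, with a 95% interval of -2.30 to -1.13 (adjusted p = 0.00141). It passed in all 12 processing settings tried, where it lay between -1.88 and -1.35, and without each of the 4 arrays in turn, where it lay between -1.88 and -1.55 (adjusted p between 0.00758 and 0.0391). Intermediate cultures had 7.58 and 6.77 with BMP4, against 6.72 and 7.12 in control medium, and late cultures 7.83 and 7.82 with BMP4, against 7.35 and 8.10. The arrays overlapped in both, with differences of 0.25 (95% interval -0.33 to 0.84) and 0.10 (-0.49 to 0.69), each with an adjusted p of 1.

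At day 1 the picture was another one, with higher Ihh under BMP4 in late and intermediate cultures that did not pass the test over all genes. Late cultures had 7.80 and 8.05 with BMP4 at day 1, against 6.36 and 6.81 in control medium. Intermediate cultures had 7.56 and 6.91 with BMP4, against 6.26 and 6.50. In both populations the arrays did not overlap. The differences were 1.34 in late cultures (95% interval 0.75 to 1.92, adjusted p = 0.0603) and 0.86 in intermediate cultures (0.27 to 1.44, adjusted p = 0.342). Early cultures had 6.89 and 6.52 with BMP4 at day 1, against 6.51 and 6.64, a difference of 0.13 (adjusted p = 0.892). Between day 1 and day 2 in BMP4, Ihh moved by -0.06, -0.06 and -0.10 in early, intermediate and late cultures. Late cultures with BMP4 at day 1 were therefore already near the level that late cultures had at day 2 in either medium.

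**Figure D2:**
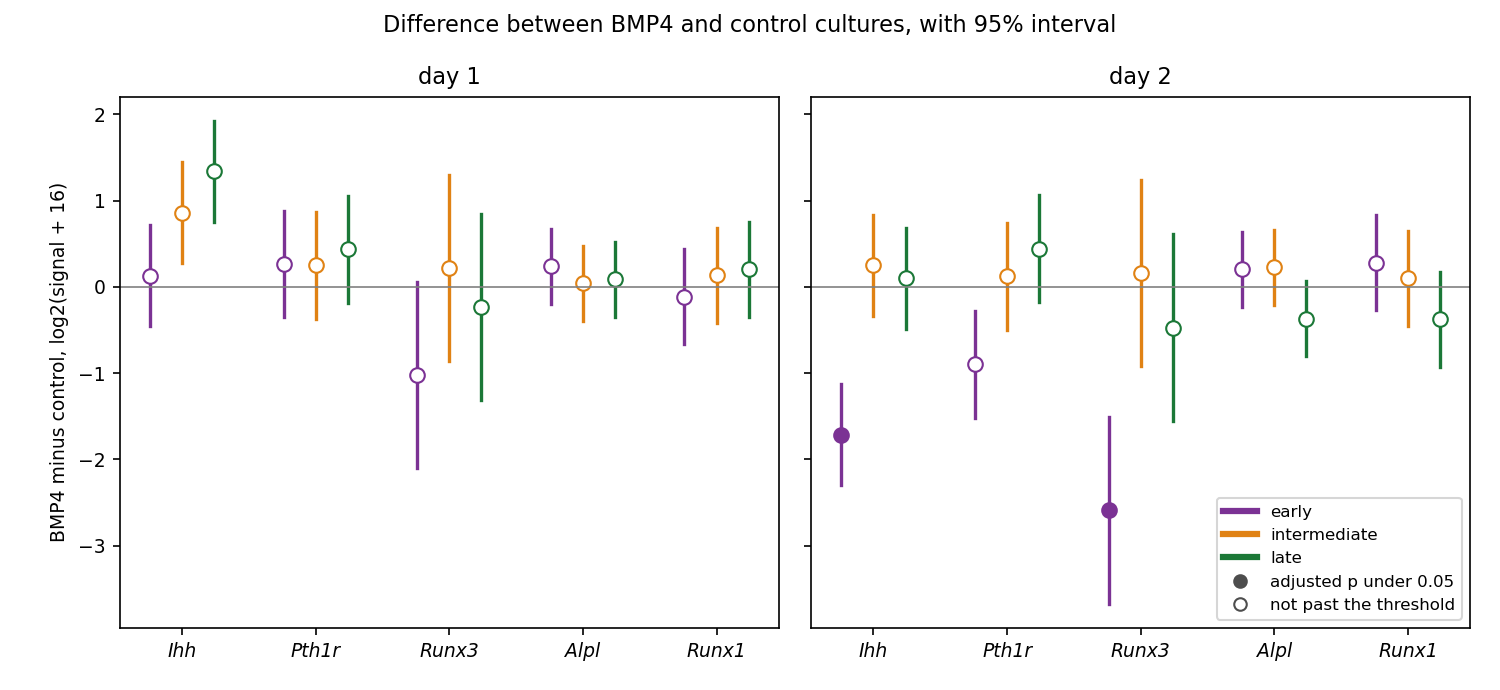
BMP4 minus control in log2(signal + 16) for the 5 genes, by population, at days 1 and 2. Points are differences of 2-array means with 95% intervals, and filled points have an adjusted p under 0.05. The filled points are Ihh at -1.72 and Runx3 at -2.59, both in early cultures at day 2.

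The response of Ihh to BMP4 at day 2 differed between the early and the intermediate population. The response in early cultures minus that in intermediate cultures was -1.97 ± 0.40, with a 95% interval of -2.79 to -1.14 (adjusted p = 0.0425). Against late cultures it was -1.82, which did not pass (adjusted p = 0.0745). The call against intermediate cultures was lost without the doubted day 0 arrays, which enter only through the shared estimate of spread (adjusted p = 0.0617). Leaving out each of its 8 arrays in turn kept the call once, without intermediate BMP4 replicate 2, with values between -2.37 and -1.56 and adjusted p-values up to 0.223. The difference against late cultures passed without late control replicate 2 (-2.19, adjusted p = 0.0345). In control medium at day 2, Ihh in early cultures was 1.44 higher than in intermediate cultures (adjusted p = 0.0294) and 0.64 higher than in late cultures (adjusted p = 0.794). The first of these was not called without either early array or without intermediate replicate 1, with adjusted p-values of 0.109 to 0.43. At day 0 the means of the 3 populations lay within 0.25 of each other. Replicate 1 of day 0, which is not doubted, stood at 6.01 in early, 6.13 in intermediate and 6.34 in late cultures. The early control arrays of day 2 enter the time, BMP4 and population differences alike, so these 3 results of Ihh share samples.

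Ordered by level, Ihh was highest in early control cultures at day 2 (mean 8.36), followed by late cultures with BMP4 at day 1 (7.92) and day 2 (7.82) and late control cultures at day 2 (7.72). Intermediate cultures with BMP4 at day 1 (7.24) and day 2 (7.17) and in control medium at day 2 (6.92) stood in the middle. Below them came early cultures with BMP4 at day 1 (6.70) and day 2 (6.65), then the day 1 controls of the late (6.58), early (6.57) and intermediate (6.38) populations. The day 0 means were 6.24 in early, 6.22 in late and 5.99 in intermediate cultures. Of the 14 pairs of neighbours in this order, 12 overlapped in their arrays. The signal itself ran between 41.8 and 351 units.

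The receptor gene Pth1r rose over 2 days in all 3 populations and showed no call for BMP4. Its control levels in early cultures were 7.77 and 7.70 at day 0, 8.75 and 8.35 at day 1, and 9.26 and 9.33 at day 2. Intermediate cultures had 7.20 and 7.12 at day 0, 8.97 and 8.02 at day 1, and 8.78 and 8.78 at day 2. Late cultures had 8.17 and 6.95 at day 0, 8.49 and 8.76 at day 1, and 8.79 and 9.02 at day 2. No day 2 array fell as low as any day 0 array of its population, and the 2 late arrays of day 0 lay far apart. Over these 2 days the difference was 1.56 in early (adjusted p = 0.000556), 1.62 in intermediate (adjusted p = 0.000272) and 1.34 in late cultures (adjusted p = 0.00189), each with an SE of 0.30. Without the doubted arrays it was 1.52 (adjusted p = 0.00164), 1.58 (adjusted p = 0.00114) and, in late cultures, 0.73, which did not pass (adjusted p = 0.114). The late rise of Pth1r thus rests on replicate 2 of day 0.

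On the first day alone, Pth1r differed by 1.34 in intermediate cultures (adjusted p = 0.00257), 1.06 in late cultures (adjusted p = 0.0149) and 0.81 in early cultures (adjusted p = 0.071). Without intermediate day 1 replicate 1 the first was 0.87 (adjusted p = 0.0824), and without late day 1 replicate 2 the second was 0.93 (adjusted p = 0.122). These were 1.30 (adjusted p = 0.0085), 0.45 (adjusted p = 0.397) and 0.78 (adjusted p = 0.111) without the doubted arrays. The second day added 0.28, 0.27 and 0.75, none of which passed. With BMP4 at day 2, Pth1r stood at 8.55 and 8.25 in early cultures, against 9.26 and 9.33 in control medium, with no overlap. The difference was -0.90, with a 95% interval of -1.52 to -0.28 (adjusted p = 0.0805), and it passed when the doubted day 0 arrays were left out of the fit (adjusted p = 0.0406). Intermediate cultures had 9.09 and 8.71 with BMP4 at day 2, against 8.78 and 8.78, and late cultures 9.09 and 9.60, against 8.79 and 9.02, with differences of 0.12 and 0.44. At day 1, BMP4 arrays had 8.98 and 8.65, against 8.75 and 8.35, in early cultures, 8.79 and 8.71, against 8.97 and 8.02, in intermediate cultures, and 8.98 and 9.14, against 8.49 and 8.76, in late cultures. These differences lay between 0.25 and 0.43. By level, Pth1r was highest in late cultures with BMP4 at day 2 (mean 9.34) and early control cultures at day 2 (9.30), and lowest in the day 0 groups, at 7.74 in early, 7.56 in late and 7.16 in intermediate cultures. Early cultures with BMP4 at day 2 (8.40) came next above day 0, and 12 of the 14 neighbours in the order overlapped.

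Runx3, a transcription factor of maturing cartilage, rose in control medium in the early and late populations and was lower with BMP4 in early cultures. Its probe set was above the dim-signal limit on 20 of the 30 arrays, so low values are near background. Early cultures had 4.19 and 4.84 at day 0, 6.65 and 5.19 at day 1, and 8.40 and 7.46 at day 2. Intermediate cultures had 5.51 and 5.20 at day 0, 5.48 and 5.64 at day 1, and 6.0 and 6.27 at day 2. Late cultures had 5.10 and 5.00 at day 0, 6.80 and 7.01 at day 1, and 7.08 and 7.74 at day 2. The late cultures had thus reached most of their change by day 1, while the early cultures were highest at day 2. Day 2 minus day 0 was 3.42 ± 0.52 in early cultures (adjusted p = 5.47e-05), 2.36 in late cultures (adjusted p = 0.00174) and 0.78 in intermediate cultures (adjusted p = 0.292). Without the doubted arrays, the early and late differences were 3.75 (adjusted p = 0.000735) and 2.31 (adjusted p = 0.0246). Both day 0 arrays of the early and of the late population were below the dim-signal limit, so the size of these differences depends on the pseudocount: with 1 and with 64 in place of 16 they were 5.11 and 2.05 in early and 3.09 and 1.43 in late cultures. With the mean of the Runx3 probe sets they were 1.78 and 0.84, and the late call was lost (adjusted p = 0.122).

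On the first day, Runx3 differed by 1.85 in late cultures (adjusted p = 0.015), a call lost without the doubted arrays at 1.81 (adjusted p = 0.104) and without each of its 4 arrays in turn (adjusted p between 0.0513 and 0.0951). Early cultures differed by 1.41 (adjusted p = 0.0723), or by 2.14 without day 1 replicate 2 (adjusted p = 0.0261), and intermediate cultures by 0.20 (adjusted p = 0.834). With BMP4 at day 2, Runx3 stood at 5.85 and 4.84 in early cultures, against 8.40 and 7.46 in control medium. The arrays with BMP4 were all below the control arrays, and the difference was -2.59 ± 0.52 (95% interval -3.67 to -1.51, adjusted p = 0.00577), with BMP4 replicate 2 below the dim-signal limit. That call was lost without control replicate 1 (-2.12, adjusted p = 0.117) and without BMP4 replicate 2 (-2.08, adjusted p = 0.146). Intermediate cultures had 6.28 and 6.30 with BMP4, against 6.0 and 6.27, and late cultures 6.80 and 7.08, against 7.08 and 7.74, with differences of 0.16 and -0.47 that did not pass. The response in early minus intermediate cultures was -2.75 (adjusted p = 0.145) and that in early minus late cultures -2.12 (adjusted p = 0.296), so a difference between populations was not shown. At day 1, early cultures had 5.28 and 4.53 with BMP4, against 6.65 and 5.19, a difference of -1.02 (adjusted p = 0.368). Intermediate cultures had 6.84 and 4.72 with BMP4 at day 1, against 5.48 and 5.64, and late cultures 6.79 and 6.56, against 6.80 and 7.01. By level, Runx3 was highest in control medium at day 2 in early (mean 7.93) and late cultures (7.41), and lowest in early cultures at day 0 (4.51) and with BMP4 at day 1 (4.90), with late cultures at day 0 at 5.05. Of 14 neighbours in its order, 10 overlapped.

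A further probe set of Runx3 was dim, above the limit on 11 arrays, and correlated at 0.27 with the brighter one over the 15 group means. It showed no call: day 2 minus day 0 was 0.15, 0.11 and -0.68 in early, intermediate and late cultures, and BMP4 minus control in early cultures at day 2 was -0.90 (adjusted p = 0.325 over every probe set). The changes of Runx3 therefore stand on 1 of its 2 probe sets.

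Runx1, known from early condensations and blood, gave different answers by probe set. Its brightest one was flat: array levels lay between 5.88 and 7.06, and the 15 group means between 6.14 and 6.77. Its difference between day 2 and day 0 was -0.03 in early cultures (95% interval -0.58 to 0.52, adjusted p = 0.959), -0.09 in intermediate cultures (adjusted p = 0.843) and 0.23 in late cultures (adjusted p = 0.572). BMP4 minus control at day 2 was 0.28, 0.10 and -0.38. Another 2 dimmer probe sets, above the limit on 21 and 23 arrays, correlated at 0.91 with each other over the 15 group means and rose in all 3 populations. Of these, the one above the limit on 21 arrays correlated at 0.12 with the brightest over the same means.

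This dimmer Runx1 probe set stood at 4.46 and 4.77 in early cultures at day 0 and at 5.82 and 4.87 at day 1, and reached 6.23 and 6.22 at day 2. In intermediate cultures it stood at 4.21 and 4.43, then 6.11 and 5.55, then 5.33 and 6.01, and in late cultures at 4.66 and 5.03, then 6.35 and 5.55, then 6.39 and 6.80. No day 2 array overlapped day 0. The day 1 step was called in intermediate cultures, at 1.51 (adjusted p = 0.00916), and not in late cultures, at 1.10 (adjusted p = 0.0585). The difference between day 2 and day 0 was 1.61 in early (adjusted p = 0.0047 over every probe set), 1.35 in intermediate (adjusted p = 0.0127) and 1.75 in late cultures (adjusted p = 0.00222). The other one differed by 0.81 (adjusted p = 0.00891), 0.85 (adjusted p = 0.00465) and 0.62 (adjusted p = 0.038). Over every probe set tested, 21.4%, 26.8% and 24.2% were called in these 3 comparisons. Without the doubted arrays the first kept its call in early (1.77, adjusted p = 0.0226) and late cultures (1.93, adjusted p = 0.0156) and missed it in intermediate cultures (1.46, adjusted p = 0.0543), and the other kept it in early (0.89, adjusted p = 0.028) and intermediate cultures (1.05, adjusted p = 0.01) and missed it in late cultures (0.58, adjusted p = 0.167). With BMP4 at day 2 the first stood at 6.08 and 5.82 in early, 5.90 and 6.80 in intermediate and 7.00 and 6.28 in late cultures, and no Runx1 probe set showed a call for BMP4. Of every probe set, BMP4 gave calls for 3.89%, 0% and 0.0109% at day 2 and for 1.73%, 0.17% and 0.0689% at day 1. The remaining 3 probe sets were above the limit on 14, 4 and 0 arrays. The files do not tell which transcripts the probe sets read.

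**Figure D3:**
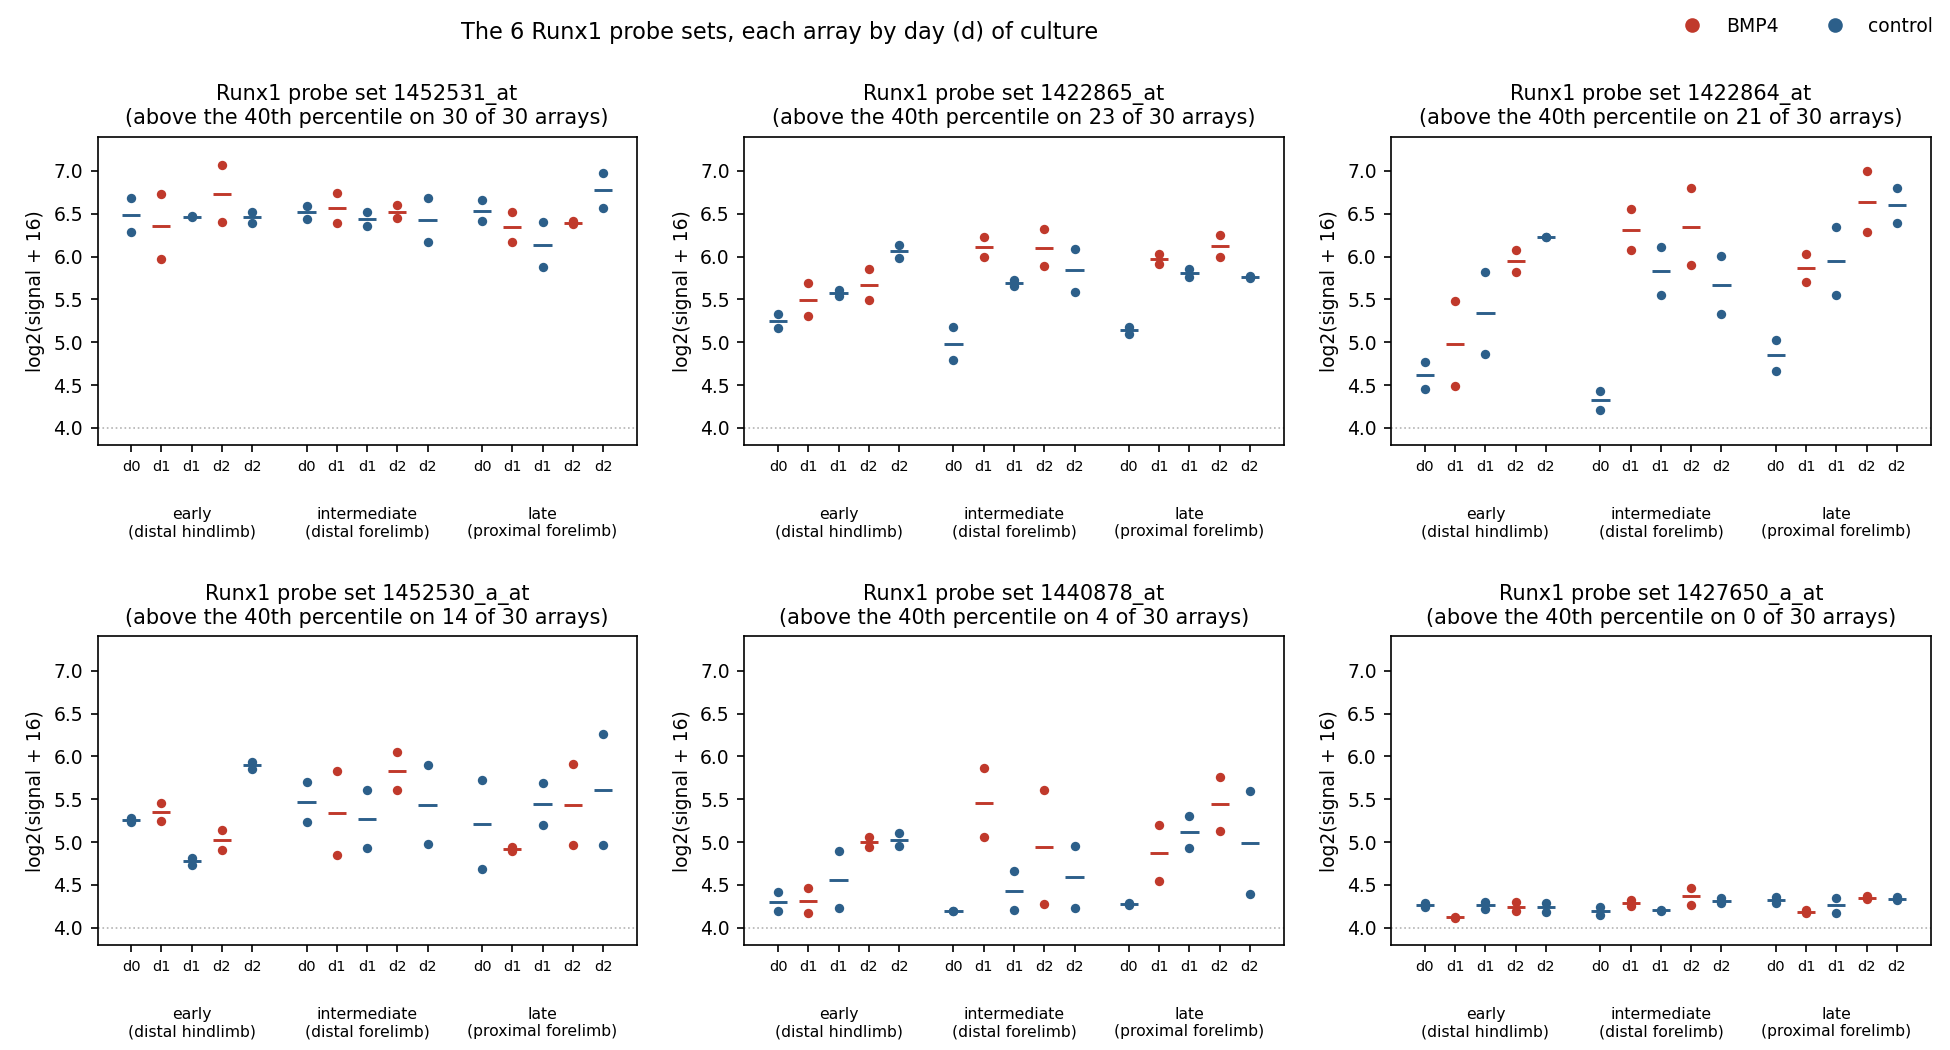
Levels of the 6 Runx1 probe sets on each array, as log2(signal + 16), by population and day, with BMP4 in red and control medium in blue. The brightest probe set stays between 5.88 and 7.06, while the 2 that follow it in brightness are lower at day 0 than at day 2 in every population.

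Alpl, the mineralisation enzyme, stayed low and varied little. Array levels lay between 5.78 and 6.76, a range of 0.98, where Runx3 spanned 4.22. From day 0 to day 2 the difference was -0.19 in early and -0.09 in intermediate cultures. In late cultures it was 0.58 (95% interval 0.15 to 1.02), just past the threshold (adjusted p = 0.0415), and 0.83 without the doubted arrays (adjusted p = 0.0269). Leaving out each of its 4 arrays in turn kept that call once, without day 0 replicate 2, and the adjusted p was 0.0508 to 0.363 otherwise. BMP4 minus control at day 2 was 0.20, 0.23 and -0.37 in early, intermediate and late cultures, and none passed.

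Counted over genes and populations, day 2 minus day 0 in control medium gave calls for 9 of the 15 pairs of gene and population, all higher. The share of all tested genes called in either direction was 24.1% in early, 30.3% in intermediate and 27.5% in late cultures, and that called higher was 14.8%, 17.6% and 16.9%. Called were 3 of the 5 genes in early, 2 in intermediate and 4 in late cultures. The count was 7 without the doubted arrays. Day 1 minus day 0 called 3 of 15, all higher, against 15.5%, 21% and 18.9% of all genes called in either direction and 9.51%, 13.4% and 11.9% called higher, and 1 without the doubted arrays. Day 2 minus day 1 called 1 of 15, against 1.21%, 0.832% and 0.846% of all genes.

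For BMP4 minus control at day 2, 2 of the 15 pairs passed, Ihh and Runx3 in early cultures, both lower. Of all genes, 5.68% were called in early cultures (3.28% lower), 0.00661% in intermediate and 0.0132% in late ones. The early share hung on single arrays: it was 0.449% without BMP4 replicate 2, 0.773% without control replicate 1, 2.42% without control replicate 2 and 5.6% without BMP4 replicate 1. At day 1, 0 of 15 passed in limma's test, 2 had an unadjusted p under 0.05, and 2.45%, 0.238% and 0.0793% of all genes were called. For day 2 minus day 1 within BMP4 cultures, 0 of 15 passed and 0 had an unadjusted p under 0.05, with 0.403%, 0.608% and 0.667% of all genes called. Of 30 differences between the populations' BMP4 responses, 1 passed, that of Ihh between early and intermediate cultures at day 2, where 0.271% of all genes were called, and 7 had an unadjusted p under 0.05. That share was 0% without early BMP4 replicate 2, 0.00661% without early control replicate 1, 0.033% without early control replicate 2 and 0.687% without early BMP4 replicate 1. In the other response comparisons, 0.0264%, 0.0264% and 0% of all genes were called at day 1, and 0.211% and 0.00661% at day 2. Of 45 direct differences between populations in control medium, 1 passed, again Ihh between early and intermediate cultures at day 2, where 0.377% of all genes were called. In the other comparisons of populations the share of all genes called was 0% at day 0. It was between 0.0529% and 0.667% at day 1 (0.476% for early minus late), and 0.41% and 0.72% at day 2. Each day 0 group holds 1 doubted array, so the 0% there does not show that the populations were alike.

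Over the 15 group means, the levels of Ihh and Pth1r correlated at 0.84, those of Ihh and Runx3 at 0.83 and those of Pth1r and Runx3 at 0.71, while Runx1 and Alpl correlated at 0.67. These are descriptions of groups that share populations and media. The genes most like Ihh over the group means were Mppe1 (r = 0.93), Plekhg1, Clmp, Tmem169 and Pak3 (each 0.91). Among cartilage genes, Acan, the core protein of aggrecan, reached 0.85, Sox9, the master factor of cartilage, 0.72 and Col2a1, the main cartilage collagen, 0.68. Pth1r was most like Ttc8 (0.97), Stard8, Ppm1m, Col9a3 and D930003E18Rik (each 0.96), and reached 0.93 with Col2a1. In all, 323 genes exceeded 0.9 with Pth1r, 12 with Runx3, 7 with Ihh and 0 with Runx1. Runx3 was most like Iqgap2 (0.96), Tesk2 and Sptssa (0.94), Fam81a (0.93) and Pja1 (0.92). Alpl was most like Ctsh and Rnf113a1 (0.84), Stpg1 and Dao (0.83) and Ubd (0.81). The genes most like the brightest Runx1 probe set were C230035I16Rik (0.74), Epm2a, Arih1, Lin7b and Dscam. Over the 30 single arrays, the genes named here correlated at -0.09 to 0.46 with Runx1 and at 0.40 to 0.67 with Alpl. Those named for Ihh correlated at 0.72 to 0.87 with it over the same arrays.

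The other genes of the hedgehog and PTHrP pathway were called in both directions in control medium, at shares near those of all genes. Of 18 tested, day 2 minus day 0 called 3 higher and 3 lower in early, 4 higher and 1 lower in intermediate and 2 higher and 2 lower in late cultures, with medians of 0.05, 0.14 and -0.02 against all-gene medians within 0.05 of 0 and shares of 24.1%, 30.3% and 27.5% of all genes called. Gli3, mainly a repressor of hedgehog targets, fell by 1.12 in early (adjusted p = 1.46e-05), 0.53 in intermediate (adjusted p = 0.0111) and 0.93 in late cultures (adjusted p = 0.000107), and the intermediate call was lost without the doubted arrays (adjusted p = 0.123). Boc, a hedgehog co-receptor, rose by 1.09, 1.42 and 1.07 (adjusted p = 0.00132, 7.46e-05 and 0.00138). In intermediate cultures the co-receptor gene Cdon rose by 1.07 (adjusted p = 0.00707) and Gpc3, a glypican that binds hedgehog, by 0.67 (adjusted p = 1.29e-05). Without the doubted arrays the list had 3 higher and 1 lower in early and 1 and 1 in late cultures, and without early day 2 control replicate 2 it had 1 and 1 in early cultures. The second day called none, and Ptch1 differed by 1.14 in early cultures (adjusted p = 0.146).

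With BMP4 at day 2, this list had 0 calls of 18 in intermediate and late cultures, where 0.00661% and 0.0132% of all genes were called. In early cultures it had 1 higher and 2 lower calls of 18, where 5.68% of all genes were called. Ptch1, the receptor and a standard target of hedgehog signalling, stood at 9.84 and 8.76 with BMP4, against 11.11 and 11.12 in control medium (difference -1.82 ± 0.34, adjusted p = 0.00386). Gli1, an activator that is itself a hedgehog target, stood at 7.59 and 6.48, against 8.44 and 8.24 (-1.31 ± 0.35, adjusted p = 0.0288). Both were lower on both BMP4 arrays, and more so on replicate 2. Gli3 stood at 9.81 and 9.68, against 9.09 and 9.29 (0.56, adjusted p = 0.0331). Smo, the membrane protein that carries the signal inward, differed by -0.42 (adjusted p = 0.215). The BMP4 response of Ptch1 in early minus intermediate cultures was -2.38 (adjusted p = 0.0429), and that of Gli1 was -1.40 (adjusted p = 0.319). Without BMP4 replicate 2 no gene of the list was called, with Ptch1 at -1.28 (adjusted p = 0.141) and Gli1 at -0.75 (adjusted p = 0.417), whereas Ihh kept its call. None was called without control replicate 1 either (Ptch1 -1.83, adjusted p = 0.0518), and Ptch1 alone without control replicate 2, while Gli3 was called in none of these 4 runs. The difference in response of Ptch1 also missed the threshold without the doubted arrays (adjusted p = 0.0627). At day 1, Gas1, a hedgehog co-receptor, was lower with BMP4 than in control medium, by 0.99 in intermediate cultures (adjusted p = 0.0077) and by 0.73 in early cultures (adjusted p = 0.0211).

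**Figure D4:**
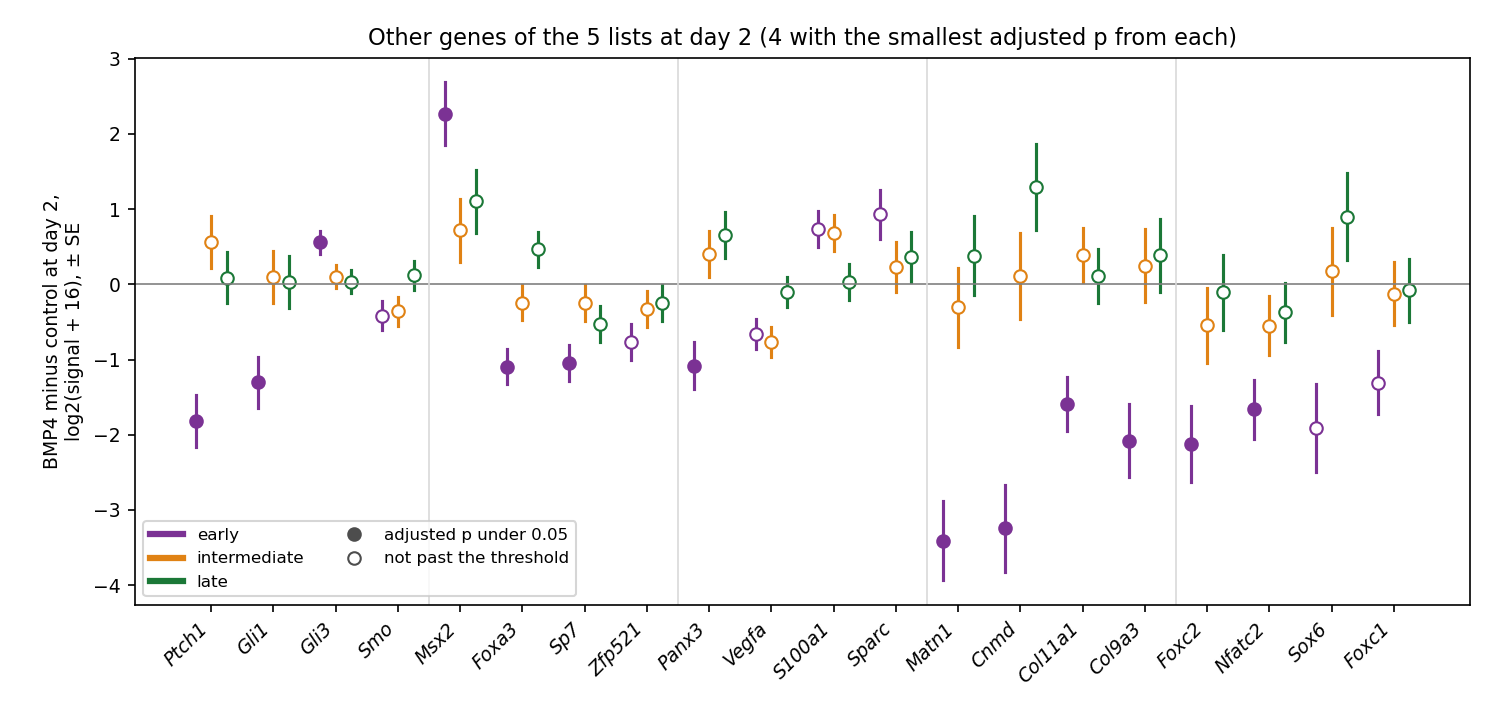
BMP4 minus control at day 2 in log2(signal + 16), with SE, for 20 genes of the 5 related lists, by population. Filled points have an adjusted p under 0.05, and all of them belong to early cultures. Matn1 and Cnmd lie lowest, at -3.41 and -3.25, and Msx2 highest, at 2.27.

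Among 22 tested genes of Runx cofactors and regulators of maturation, day 2 minus day 0 called 4 higher and 3 lower in early, 7 and 3 in intermediate and 5 and 5 in late cultures, with medians of 0.02, 0.10 and -0.05, where 24.1%, 30.3% and 27.5% of all genes were called. Mef2c, a factor that drives hypertrophy, rose by 2.50, 2.12 and 2.74 (adjusted p = 2.84e-06, 1.27e-05 and 8.73e-07). Skeletal muscle markers also rose in these comparisons, and the part of muscle cells in the rise of Mef2c was not tested. Twist1, a mesenchymal factor that holds Runx proteins back, fell by 1.62, 1.46 and 1.61 (adjusted p = 7.93e-06, 1.75e-05 and 7.79e-06). Sp7, an osteoblast and hypertrophy factor, rose by 1.5, 0.68 and 1.21 (adjusted p = 9.84e-05, 0.0364 and 0.000737), and Tle3, a corepressor, fell by 0.94 in intermediate cultures (adjusted p = 2.23e-05). On the second day alone, Foxa3, a forkhead factor of cartilage hypertrophy, rose by 1.30 in early cultures (adjusted p = 0.00495) and Sp7 by 1.36 in late cultures (adjusted p = 0.00741), the first of them not without day 2 control replicate 1 (1.20, adjusted p = 0.108). Without the doubted arrays, 4 were higher and 2 lower in intermediate and 4 and 3 in late cultures.

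With BMP4, 1 of these 22 genes was higher and 2 lower in early cultures at day 2, where 5.68% of all genes were called. Msx2, a homeobox gene that answers BMP directly, stood at 9.31 and 9.78, against 7.05 and 7.51 (2.27, adjusted p = 0.00334), and was already 2.81 higher at day 1 (adjusted p = 0.000653). Foxa3 stood at 5.87 and 5.42, against 6.83 and 6.65 (-1.09, adjusted p = 0.00854), and Sp7 at 6.66 and 6.40, against 7.82 and 7.33 (-1.04, adjusted p = 0.0148). Foxa3 and Sp7 are named because of their small adjusted p, so the lack of overlap between their BMP4 and control arrays adds no support. Zfp521, a Runx antagonist, differed by -0.77 (adjusted p = 0.0575). Without BMP4 replicate 2 none of the 22 was called, with Msx2 at 2.03 (adjusted p = 0.0865), Foxa3 at -0.87 (adjusted p = 0.177) and Sp7 at -0.91 (adjusted p = 0.184). None was called without control replicate 1 either, where their adjusted p-values were 0.0721, 0.111 and 0.203.

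Genes of hypertrophy, mineralisation and bone matrix rose in most tested cases: of 15, day 2 minus day 0 called 8 higher and 0 lower in early, 10 and 1 in intermediate and 10 and 0 in late cultures, with medians of 1.10, 1.30 and 1.16, where 14.8%, 17.6% and 16.9% of all genes were called higher. The late count was 5 without the doubted arrays. The 15 tested genes of the 24 listed did not include Mmp13, Ibsp, Spp1, Bglap, Bglap2, Dmp1, Phospho1, Enpp1 and Ankh. The counts therefore say nothing of these genes. Sparc, a matrix protein of bone and other tissues, rose by 3.16, 3.45 and 2.92, and Mgp, an inhibitor of calcification, by 4.46, 5.34 and 5.14. Phex, an endopeptidase of mineralising cells, rose by 1.10, 2.61 and 2.85 (adjusted p = 0.0151, 3.38e-06 and 1.74e-06), the early call being lost without the doubted arrays (adjusted p = 0.0596) and without day 2 control replicate 2 (adjusted p = 0.0989). At day 2 in control medium Phex stood at 5.06 and 5.26 in early cultures, against 7.31 and 6.99 in late cultures (-1.99, adjusted p = 0.00495, and 0.104 without early replicate 2). Panx3, a channel of prehypertrophic cartilage, rose by 1.32 on the second day in early cultures (adjusted p = 0.0367, and 0.282 and 0.156 without either day 2 array) and was lower there with BMP4 at day 2, at 5.39 and 4.65, against 6.17 and 6.05 (-1.08, adjusted p = 0.0436). It was the only one of the 15 called for BMP4 at day 2, its call was lost without BMP4 replicate 2 (-0.71, adjusted p = 0.422), without either control array (adjusted p = 0.229 and 0.123) and without the doubted arrays (adjusted p = 0.0522), and Vegfa (-0.66, adjusted p = 0.0594), S100a1 (0.74, adjusted p = 0.0709) and Sparc (0.93, adjusted p = 0.103) did not pass.

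Cartilage matrix genes marked the background against which the 5 genes moved. Of 17 tested, 16, 15 and 15 rose between day 0 and day 2 in early, intermediate and late cultures, with medians of 2.83, 2.66 and 2.06. Of all genes, 14.8%, 17.6% and 16.9% were called higher in these comparisons. With BMP4 at day 2, 0 of 17 were called in intermediate and late cultures, where 0.00661% and 0.0132% of all genes were called. In early cultures 9 of 17 were lower, with a median of -1.47, where 3.28% of all genes were called lower. Matn1, a matrilin of cartilage, stood at 8.02 and 5.44, against 10.28 and 9.99 (-3.41, adjusted p = 0.000892), and Cnmd, the vessel inhibitor chondromodulin, differed by -3.25 (adjusted p = 0.00238). Acan stood at 7.58 and 6.24, against 8.49 and 8.28 (-1.47, adjusted p = 0.0157), and Col2a1 at 11.63 and 10.25, against 11.89 and 11.99 (-1.0, adjusted p = 0.281). BMP4 replicate 2 was the lower one each time, and without it 1 of 17 was called, Matn1 at -2.12 (adjusted p = 0.0248). Without control replicate 1 or control replicate 2, 2 of 17 were called, Matn1 and Cnmd. Ihh was at 6.62 and 6.67 on the BMP4 arrays, near the 6.51 and 6.64 of early control cultures at day 1. Whether its difference follows that of the matrix genes was not tested. Of the chondrogenic transcription factors, 2 of 9 were lower with BMP4 in early cultures at day 2, Foxc2 (-2.12, adjusted p = 0.0157) and Nfatc2 (-1.66, adjusted p = 0.0162), neither of which was called without BMP4 replicate 2, control replicate 1 or control replicate 2 (adjusted p between 0.0681 and 0.321).

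The summed signal of 5 cartilage markers in early cultures at day 2 was 3077 to 7955 with BMP4, against 10743 to 10836 in control medium, the samples in which Ihh and Runx3 were lower. In intermediate cultures it was 9799 to 12131, against 9845 to 10100, and in late cultures 9041 to 10222, against 7260 to 9873. The sum of 11 macrophage and leukocyte genes moved the other way in early cultures: 1501 to 1512 with BMP4, against 611 to 707, with 7 of 11 higher and 0 lower, and 2 to 5 of 11 higher when 1 of these 4 arrays was left out. In that comparison 5.68% of all genes were called in either direction. None of the 11 was at a signal of 0 there, and Csf1r, the macrophage growth factor receptor, stood at 8.90 and 8.86, against 7.75 and 7.98. C1qa, a complement gene of macrophages, stood at 5.74 and 5.75 with BMP4, against 4.38 and 4.30 in control medium, near a signal of 0. In intermediate cultures at day 2 the macrophage sum was 1128 to 1290 with BMP4, against 620 to 737. In late cultures it was 512 to 605, against 539 to 620. The 2 proximal limb markers summed to 2595 to 2818 with BMP4, against 1046 to 1106, in early cultures at day 2. Of these, Meis2 stood at 11.10 and 10.96, against 9.57 and 9.52, with no overlap, though its difference of 1.48 did not pass (adjusted p = 0.183). The shared estimate of spread in that test includes the doubted day 0 arrays. Meis2 stood at 6.97 and 9.73 in intermediate and at 9.60 and 7.53 in late cultures at day 0. The part of these markers in the differences of Ihh and Runx3 was not tested. Other markers moved with the rise of the genes in control medium. Red cell genes summed to 27.4 to 417 at day 2, against 7348 to 17745 at day 0. Limb mesenchyme markers summed to 4890 to 5954 at day 2, against 6489 to 8267 at day 0, and endothelial ones to 317 to 433, against 560 to 896. Skeletal muscle markers were higher at day 2, with sums of 1557 to 3471 in early, 1447 to 2251 in intermediate and 7163 to 7190 in late cultures, against 149 to 362, 175 to 194 and 286 to 508 at day 0. Of the 6 muscle genes, 4, 4 and 6 were called higher, where 14.8%, 17.6% and 16.9% of all genes were called higher. The part of these cells in the rise of Ihh, Pth1r and Runx3 was not tested.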

How the data were processed

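Total RNA of 30 cultures was read on Affymetrix mouse expression arrays. The deposited values are linear intensity values per probe set, and the submitters' processing notes name MAS5. The deposited intensity columns share a trimmed mean of 150, and no build or parameters are given in the sources used here. From these, log2(signal + 16) was computed with no further scaling. Of 45101 probe sets, 34945 carry 1 gene symbol in the annotation table, 932 several and 9160 none, and 64 are controls. Symbols were checked by gene number for 34741, and 0 changed. A probe set was kept when it exceeded its array's 40th percentile on at least 2 arrays, which left 27577. The brightest probe set, by mean log2(signal + 16) over all arrays, stood for a gene, which gave 15136 genes.

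One linear model of the 15 group means was fitted with limma 3.58.1 in R 4.3.3 (trended empirical Bayes, 15 residual and 5.51 prior degrees of freedom). In it, 33 comparisons in 8 families were tested two-sided, with Benjamini-Hochberg adjustment over all genes per comparison at 0.05. The steps were tested on simulated data. Beside the 5 genes, the genes named are up to 4 with the smallest adjusted p of each list in each family, the 5 most alike by Pearson's r, and Sox9, Col2a1 and Acan. Csf1r, C1qa and the limb identity genes are markers named after their values were seen. Members, lists and rules were chosen with earlier results of these data known. Of the listed genes, 18 of 20 (hedgehog), 22 of 24 (Runx), 15 of 24 (hypertrophy), 17 of 18 (matrix) and 9 of 10 (transcription factors) were tested. The others, Pthlh and Runx2 among them, were not analysed here. Groups come from the labels. The alternatives tried are given in the closing section. When an array is left out, the lone array of its group is taken to vary like the other groups. Arrays give no counts, so 2 arrays a group limit the precision.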

Additional observations from a re-analysis of the deposited data

Results flagged for a closer look

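The BMP4 response of Ihh at day 2 differed between early and intermediate cultures by the test of the difference itself, with early minus intermediate at -1.97 (adjusted p = 0.0425 in limma's test). That call was kept in 6 of 12 processing settings and lost in most runs that left out 1 of its 8 arrays. Over all these runs the difference lay between -2.37 and -1.54. Ihh was lower with BMP4 on both early arrays and overlapped between media in intermediate cultures.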

How the results depend on the processing

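The lower level of Ihh with BMP4 than in control medium, in early cultures at day 2, passed in all 12 settings. Over these settings and the 4 runs that left out an array, the difference lay between -1.88 and -1.35. For day 1 minus day 0, the count of 3 called pairs became 5 with the replicate block and 1 without the doubted day 0 arrays, and 1 to 4 when arrays were left out in turn. For day 2 minus day 1, the count of 1 became 3 with pseudocount 64 and with the replicate block, and 0 to 2 with arrays left out. For day 2 minus day 0, 9 became 8 to 9 with arrays left out and 7 without the doubted arrays. For BMP4 at day 1, 0 became 1 with pseudocount 64 and with the replicate block, and 0 to 1 with arrays left out, the added pair being Ihh in late cultures (adjusted p = 0.0469 and 0.0461). For BMP4 at day 2, 2 became 3 without the doubted arrays and 1 to 2 with arrays left out. For the change within BMP4 cultures, 0 stayed 0 with arrays left out. For differences between responses, 1 became 0 with pseudocount 1, without the filter, with every probe set, without the variance trend, with only the compared arrays and without the doubted arrays. It became 2 with pseudocount 64 and with quantile normalisation, and 0 to 3 with arrays left out. For differences between populations, 1 became 0 with pseudocount 1 and with only the compared arrays, 2 with pseudocount 64, and 0 to 1 with arrays left out. The cause of these changes was not tested.

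Runx1 in early cultures, day 2 minus day 0, changed sign to 0.75 (adjusted p = 0.0229) with the mean of its probe sets, to 0.17 without the doubted arrays, and lay between -0.23 and 0.17 with arrays left out. Over all genes, pseudocount 1 turned the 32 calls for the response in early minus late cultures at day 2 into 1, and the 57 between early and intermediate cultures at day 2 into 7. With only the compared arrays in the fit, the 860 calls for BMP4 in early cultures at day 2 became 168, and with the replicate block 1379. Replicate numbers recur across groups. Over 105 pairs of groups the correlation of same-numbered arrays' deviations had a median of 0.12 (-0.12 to 0.35) and passed 0.1 in 60, not in all, so the numbers were not taken as pairs, although some deviation is shared. The alternative without the doubted arrays was chosen after seeing the data. Dim probe sets of Runx3 and Runx1 limit what can be read at day 0.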
